A study of Mus musculus with 16 samples.

Results

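The genes described here are the cytokine gene Il10, the 2 genes of its receptor, Il10ra and Il10rb, the signal transducer gene Stat3, the feedback inhibitor genes Socs1, Socs2, Socs3 and Cish, and the transcriptional regulator genes Nfil3 and Bcl3. They were chosen by name as the IL-10 axis, and each was read from the probe set that the array annotation maps to that symbol alone, taking the probe set with the highest mean where there were several. All 10 were on the array, out of 19272 genes with such a probe set, and all 10 passed the filter on dim signals that left 10236 genes for testing.

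Interleukin-10 is the main cytokine by which myeloid cells restrain their own inflammatory response after a microbial stimulus. It binds a receptor made of a specific chain, encoded by Il10ra, and a chain shared with other cytokines of the family, encoded by Il10rb, and the kinases JAK1 and TYK2 then phosphorylate STAT3, which activates genes that hold inflammatory transcription down. SOCS proteins are made in response to cytokines and dampen JAK/STAT signalling, and of these Cish and Socs2 are known as targets of STAT5, the factor that GM-CSF activates.

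The cells came from the marrow of C57BL/6 mice, grown in GM-CSF (10 ng/mL), and for the high-salt cultures NaCl was added from day 3 to reach 450 mOsm/L. On day 7 the cells were harvested and replated for 6 h, with or without lipopolysaccharide (LPS), a bacterial ligand of TLR4, at 10 ng/mL. The 4 groups were 450 mOsm/L with LPS, 290 mOsm/L with LPS, 450 mOsm/L without LPS and 290 mOsm/L without LPS, with 4 cultures each, and the labels give the same 4 mouse numbers in every group. No group carries a genetic change. Total RNA of each culture was hybridised to 1 array, and values are log2 expression per probe set.

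The array medians lay between 6.78 and 6.93, and the lowest median correlation of an array with the others of its group, over the 10236 genes tested, was 0.990. The dendritic cell genes Itgax (11.3 to 12.2), H2-Ab1 (13.2 to 13.4) and Cd74 (13.5 to 13.7) were bright on all 16 arrays, while Flt3 (5.96 to 7.49) and Zbtb46 (6.68 to 7.51), which define conventional dendritic cells, lay near the filter level of 6.83 and the macrophage gene Adgre1 was also bright (11.4 to 12.7). Neutrophil genes moved with salt: of 16 such genes 0 rose and 13 fell at 450 mOsm/L with LPS in limma's test (0 higher at an unadjusted p under 0.05), and 0 rose and 15 fell without LPS (again 0 higher unadjusted). Over all tested genes, 16.8% rose and 21.8% fell with LPS, and 20.6% and 23.7% without it. Of the 16 genes, 6 lay below the filter level on all 4 arrays at 450 mOsm/L with LPS, and 8 did without LPS. In each 290 mOsm/L group this held for 0 genes. Genes below the level throughout a salt group passed the filter through other groups, which favoured a fall with salt. The mean of the neutrophil list was 7.66 to 7.87 in the 450 mOsm/L cultures with LPS against 9.73 to 10.1 in the 290 mOsm/L cultures with LPS, and 6.96 to 7.09 in the 450 mOsm/L cultures without LPS against 9.59 to 10.1 in the 290 mOsm/L cultures without LPS. Of 12 macrophage genes, 1 rose and 8 fell with salt in the presence of LPS (over all tested genes, 16.8% rose and 21.8% fell), and 2 rose and 6 fell without it (over all tested genes, 20.6% and 23.7%). The mean of 10 mast cell and basophil genes was 6.07 to 6.18 in the 450 mOsm/L cultures with LPS against 6.81 to 7.38 in the 290 mOsm/L cultures with LPS, and 5.65 to 5.78 in the 450 mOsm/L cultures without LPS against 6.33 to 6.85 in the 290 mOsm/L cultures without LPS. Many of these 10 genes lay below the filter level on all 4 arrays of a group. With LPS these were 7 at 450 mOsm/L and 5 at 290 mOsm/L, and without LPS 8 and 5. The part of these cell types in the differences of the 10 genes was not tested, and in such bulk RNA fewer cells of a type and less RNA per cell cannot be told apart.

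In LPS-stimulated cells, salt was accompanied by higher Il10, Stat3, Socs2, Socs3, Cish, Nfil3 and Bcl3, while Il10ra, Il10rb and Socs1 did not pass the test. That made 7 of 10 genes higher and 0 lower (0 also at an unadjusted p under 0.05) by limma with Benjamini-Hochberg adjustment at 0.05, where 38.6% of all tested genes were called, 16.8% higher and 21.8% lower. Without LPS, Il10ra, Stat3, Socs1, Socs2 and Nfil3 were higher at 450 mOsm/L, Il10rb was lower, and Il10, Socs3, Cish and Bcl3 did not pass. Those were 5 higher and 1 lower of 10, against 44.3% of all genes called, 20.6% higher and 23.7% lower. LPS itself raised 9 of 10 genes at 450 mOsm/L (all but Il10ra) and 9 of 10 at 290 mOsm/L (all but Il10rb), with 0 lower at either osmolarity (0 unadjusted), where 71.8% of all genes were called at 450 mOsm/L (26.4% higher, 45.3% lower) and 73.5% at 290 mOsm/L (26.4% higher, 47.1% lower). The median difference of the 10 genes was 0.38 for salt with LPS and 0.22 for salt without LPS, with all tested genes at 0.0015 and 0.0010, and 1.51 for LPS at 450 mOsm/L and 1.08 for LPS at 290 mOsm/L, with all genes at -0.09 and -0.11.

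**Figure D1:**
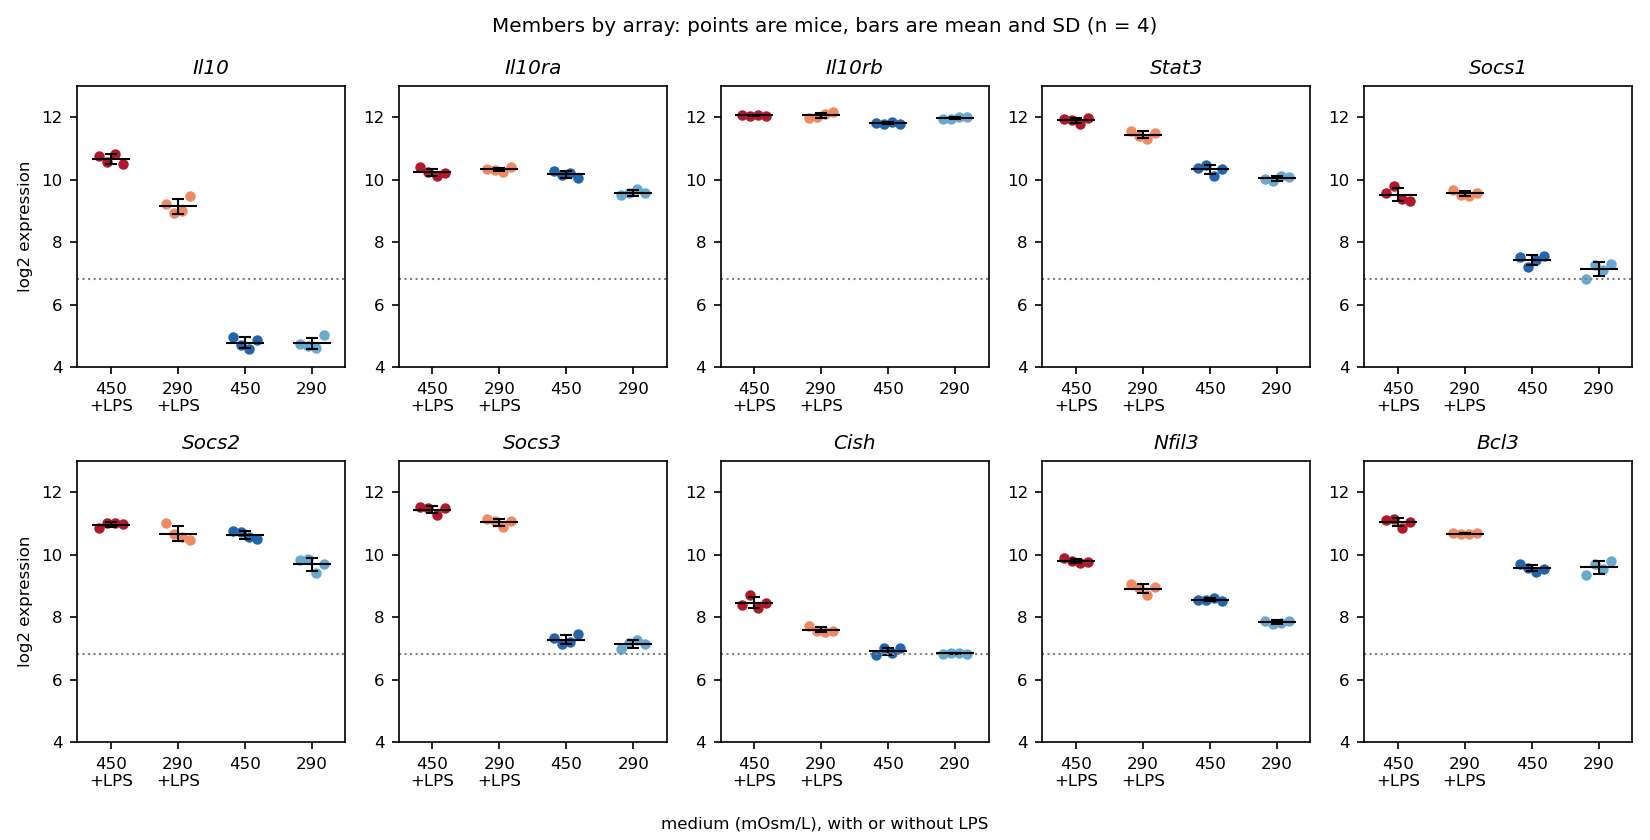
Log2 expression (vertical axis) of each of the 10 genes in the 4 groups (horizontal axis), with a point per array, bars for the group mean and SD and a dotted line at the filter level of 6.83. Il10 lies under that line in all 8 cultures without LPS and is highest in the 4 cultures at 450 mOsm/L with LPS, between 10.51 and 10.81.

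Il10, which encodes the cytokine itself, was below the filter level in all cultures without LPS and highest in the cultures that had both salt and LPS. Its log2 values were 10.76, 10.55, 10.81 and 10.51 in the 450 mOsm/L cultures with LPS, against 9.21, 8.93, 9.0 and 9.47 in the 290 mOsm/L cultures with LPS. These groups did not overlap, and every salt culture lay above every culture at 290 mOsm/L. The difference was 1.50 ± 0.12 (SE) on the log2 scale, or 2.84-fold, with an adjusted p of 1.84e-08, and it ranked 32 from the highest of the 10236 genes. Within mice, the salt culture with LPS exceeded its partner by 1.56, 1.62, 1.80 and 1.04. Without LPS the values were 4.96, 4.70, 4.58 and 4.87 at 450 mOsm/L and 4.74, 4.67, 4.62 and 5.02 at 290 mOsm/L, all below the filter level and interleaved. That salt difference was 0.02 (95% interval -0.23 to 0.26, adjusted p = 0.925), on a scale where dim signals are compressed.

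The salt difference of Il10 with LPS exceeded that without LPS by 1.49 ± 0.16 (adjusted p of the interaction 4.13e-06). The LPS difference was 5.88 ± 0.12 at 450 mOsm/L, or 58.9-fold (adjusted p = 1.81e-17, rank 8 of all genes from the highest), and 4.39 ± 0.12 at 290 mOsm/L, or 21.0-fold (4.98e-16, rank 42). Both LPS folds are taken against values below the filter level, and Il10 passed the filter only through its 8 cultures with LPS. Among genes tested, those whose 16 values followed Il10 most closely were U90926 (r = 0.998), Cd80 (r = 0.994) and Ptges (r = 0.994). These correlations run over 4 groups that share a large LPS difference and are given as a description.

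Il19, a member of the same cytokine family that lies next to Il10 on mouse chromosome 1, was above the filter level in 1 group. It measured 7.92, 7.91, 7.57 and 7.73 in the 450 mOsm/L cultures with LPS, and the other 12 arrays lay between 5.59 and 6.00, below the filter level. Its salt difference with LPS was 1.86 (adjusted p = 3.35e-12), against 0.08 without LPS (0.405), with an interaction of 1.78 (2.63e-09). Il19 passed the filter only through the 450 mOsm/L cultures with LPS, so a difference between that group and the others followed from its being tested. Il20 and Il24, the next genes along, stayed below the filter level on all 16 arrays (5.04 to 5.52 and 5.10 to 5.55) and were not tested.

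**Figure D2:**
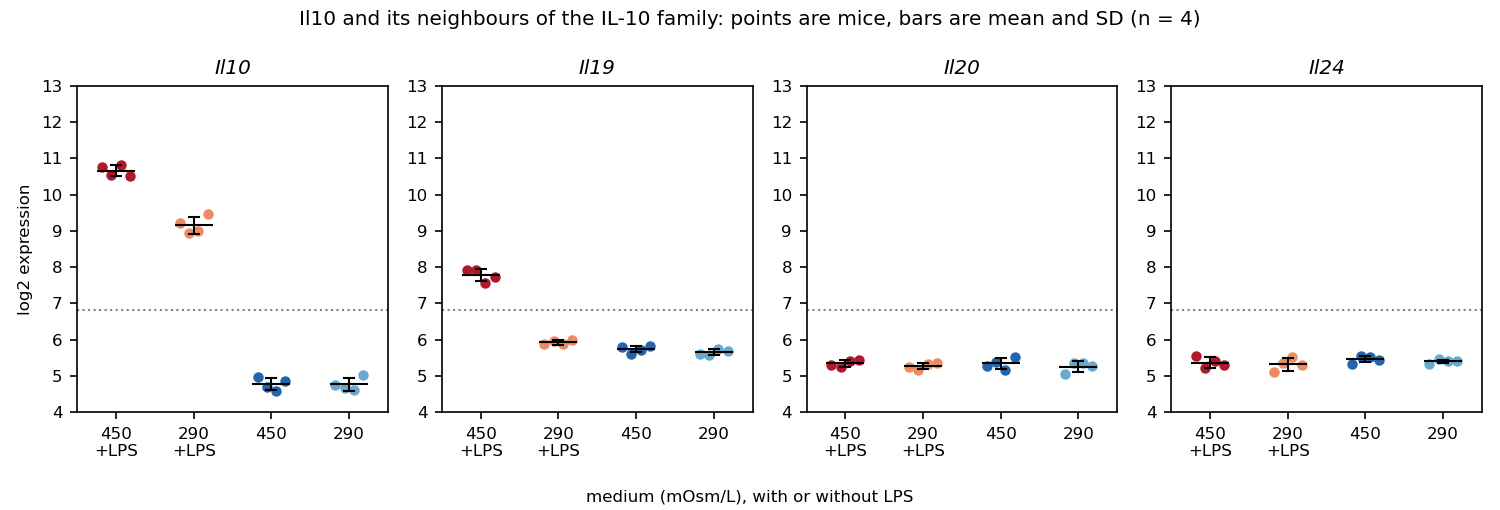
Log2 expression (vertical axis) of the neighbouring genes Il10, Il19, Il20 and Il24 in the 4 groups (horizontal axis), with a point per array, bars for mean and SD and a dotted line at the filter level of 6.83. Il19 is above the line only in the 4 cultures at 450 mOsm/L with LPS, and Il20 and Il24 are below it on all 16 arrays.

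Il10ra, the ligand-binding receptor chain, rose with salt alone and with LPS alone, and neither treatment passed the test when added to the other. Its values were 10.28, 10.14, 10.20 and 10.04 in the 450 mOsm/L cultures without LPS, against 9.50, 9.56, 9.71 and 9.57 in the 290 mOsm/L cultures without LPS. Those groups were fully apart, with a difference of 0.58 ± 0.07, or 1.50-fold (adjusted p = 1.73e-06). With LPS the values were 10.39, 10.24, 10.13 and 10.20 at 450 mOsm/L and 10.36, 10.30, 10.26 and 10.40 at 290 mOsm/L, which overlapped, with a difference of -0.09 (95% interval -0.23 to 0.05, adjusted p = 0.3). LPS gave 0.07 at 450 mOsm/L (adjusted p = 0.33, with -0.04 after quantile normalization and a passing 0.20 after cyclic loess, 0.00995) and 0.74, or 1.67-fold, at 290 mOsm/L (8.69e-09). The interaction was -0.67 ± 0.09 (4.32e-05), so the sign of Il10ra's interaction was opposite to that of Il10. In order, the means were 10.33 for LPS alone, 10.24 for salt with LPS, 10.17 for salt alone and 9.58 for neither, and only the last step passed the test between neighbours.

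Il10rb, the shared receptor chain, was bright in all groups and moved little. Its values were 12.09, 12.04, 12.06 and 12.06 at 450 mOsm/L with LPS, 11.98, 12.02, 12.09 and 12.16 at 290 mOsm/L with LPS, 11.81, 11.78, 11.85 and 11.80 at 450 mOsm/L without LPS and 11.96, 11.94, 12.00 and 11.99 at 290 mOsm/L without LPS. The 450 mOsm/L cultures without LPS were the lowest group and overlapped with no other. Salt without LPS lowered Il10rb by a log2 difference of -0.16 ± 0.04 (adjusted p = 0.00776), which did not pass after quantile normalization (-0.11, 0.0652) or cyclic loess (-0.10, 0.0804). With LPS the salt difference had a 95% interval of -0.10 to 0.09 (adjusted p = 0.99). LPS raised it by 0.25 ± 0.04 at 450 mOsm/L (6.28e-05, or 0.11 after quantile normalization, 0.0343), against a difference of 0.09 at 290 mOsm/L (95% interval -0.0044 to 0.18, 0.0794). The 290 mOsm/L value was -0.0068 after quantile normalization and 0.18 after cyclic loess, where it passed (0.00155).

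Stat3, which carries the IL-10 signal to the nucleus, rose with LPS and rose further with salt. It measured 11.95, 11.92, 11.78 and 11.97 in the 450 mOsm/L cultures with LPS, against 11.55, 11.38, 11.30 and 11.50 in the 290 mOsm/L cultures with LPS, with no overlap. The difference was 0.47 ± 0.07, or 1.38-fold (adjusted p = 8.32e-05). Without LPS the values were 10.39, 10.47, 10.12 and 10.35 at 450 mOsm/L and 10.01, 9.94, 10.13 and 10.10 at 290 mOsm/L, where the lowest salt culture lay within the range of the others and 3 of 4 mice had the higher value in salt. That difference was 0.29 ± 0.07 (0.00538), and without the arrays of mouse 2 it was 0.20 and did not pass (0.0911). LPS raised Stat3 by 1.57, or 2.97-fold, at 450 mOsm/L (1.46e-12) and by 1.39, or 2.62-fold, at 290 mOsm/L (9.05e-12), and the interaction did not pass (0.18, 95% interval -0.04 to 0.41, 0.253).

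Other genes of the JAK/STAT pathway were called with salt at shares near those of all genes with LPS. Of 21 tested, 4 rose and 5 fell with salt in the presence of LPS (over all tested genes, 16.8% rose and 21.8% fell), and 4 rose and 2 fell without it (over all tested genes, 20.6% and 23.7%), with medians of 0.04 in both, against 0.0015 and 0.0010 for all genes. Stat5a, which transmits GM-CSF signals, rose by 0.54 with LPS (adjusted p = 4.73e-05) and by 0.35 without LPS (0.00229). Ptpn6, the phosphatase SHP-1 that limits cytokine receptor signalling, fell by 0.75 with salt in the presence of LPS (2.15e-08), against a difference of 0.02 without LPS (0.807), with an interaction of -0.77 (3.37e-06). Stat2, the interferon signal transducer, had a salt difference of -0.18 with LPS (0.131) against 0.95 without LPS (2.38e-07), with an interaction of -1.13 (5.93e-06). Tyk2, the kinase that sits on the shared receptor chain, rose by 0.27 without LPS (0.0031) and differed by -0.08 with LPS (0.346).

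**Figure D3:**
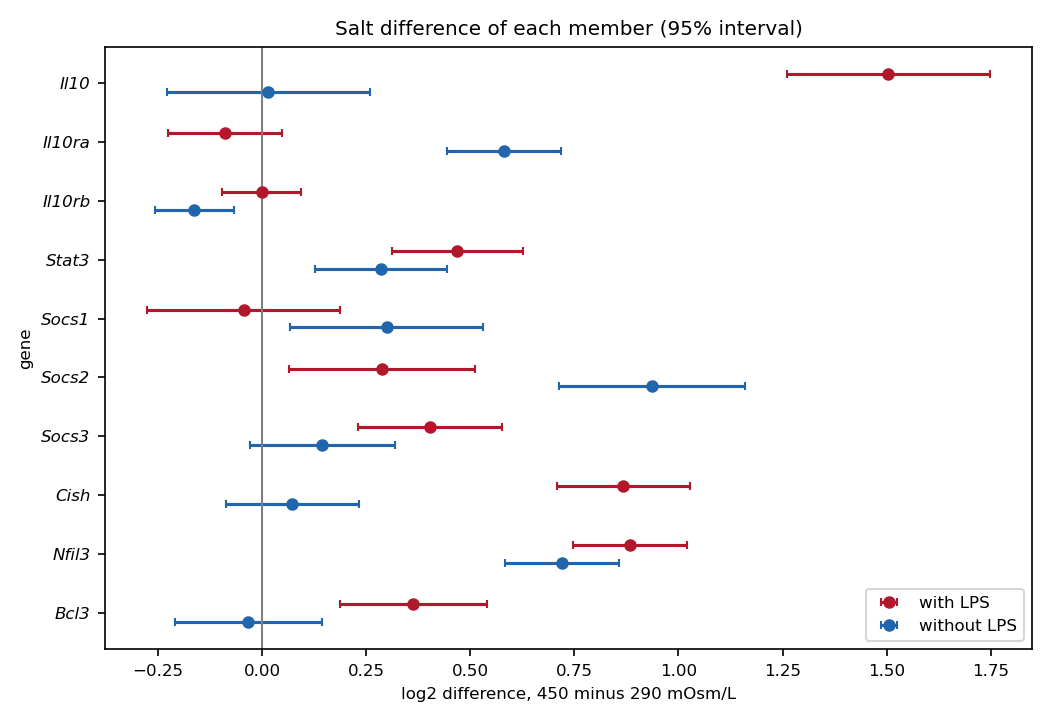
Salt difference of each of the 10 genes (450 minus 290 mOsm/L, log2, horizontal axis) with LPS and without LPS, with 95% intervals from limma. Il10 and Cish stand away from 0 only with LPS (1.50 and 0.87), Il10ra only without LPS (0.58), and Nfil3 in both (0.88 and 0.72).

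The SOCS genes are described with their promoters. Promoter sequence (GRCm38.p6, from RefSeq, written 5′ to 3′ on the strand of the gene) was held for Socs1, Socs3 and Cish of this family and for Stat3, Nfil3 and Bcl3, and not for Il10, Il10ra, Il10rb and Socs2. Windows reached from 250 bases before the annotated start to 50 after it and were searched on both strands. The STAT element TTCNNNGAA, found in 8.3% of 32851 such windows, occurred in Cish, where it lies at bases 1 to 9 and 12 to 20 counted from the start, and in Socs3, at -154 to -146. The interferon response letters, a pair of GAAA separated by any 2 bases, found in 3.44% of windows, occurred in Socs1 at -83 to -74 and, overlapping it, at -77 to -68. The osmotic response element TonE, by its consensus in 4.96% of windows, matched in Cish at bases 5 to 15 and 16 to 26, where it overlaps the STAT elements. A STAT element with a 4-base spacer (6.95% of windows) and the cAMP response element (1.79%) matched 0 of the 6 promoters searched. Cish and Socs3 are shown because both hold the STAT element and rose with salt in LPS-stimulated cells. Socs1 is shown because it did not pass that test. Stat3, Nfil3 and Bcl3 also rose with salt in LPS-stimulated cells (0.47, 0.88 and 0.36), and their windows held no STAT element. Whether the element goes with the salt difference was not tested. Capitals mark the STAT element in Cish and Socs3 and the interferon response letters in Socs1. The stretches are chr9:107296409-107296684 (plus strand) for Cish, chr11:117969367-117969616 (minus strand) for Socs3 and chr16:10785537-10785786 (minus strand) for Socs1.
Cish: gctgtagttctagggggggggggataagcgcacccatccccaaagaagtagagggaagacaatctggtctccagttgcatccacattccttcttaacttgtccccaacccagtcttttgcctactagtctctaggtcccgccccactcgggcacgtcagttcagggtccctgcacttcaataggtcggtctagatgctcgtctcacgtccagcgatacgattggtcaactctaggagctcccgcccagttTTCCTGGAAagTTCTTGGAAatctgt
Socs3: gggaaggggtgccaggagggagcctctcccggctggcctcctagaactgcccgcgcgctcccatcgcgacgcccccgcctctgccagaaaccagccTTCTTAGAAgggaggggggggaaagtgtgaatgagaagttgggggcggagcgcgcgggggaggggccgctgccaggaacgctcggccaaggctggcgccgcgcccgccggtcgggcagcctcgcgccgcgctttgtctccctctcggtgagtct
Socs1: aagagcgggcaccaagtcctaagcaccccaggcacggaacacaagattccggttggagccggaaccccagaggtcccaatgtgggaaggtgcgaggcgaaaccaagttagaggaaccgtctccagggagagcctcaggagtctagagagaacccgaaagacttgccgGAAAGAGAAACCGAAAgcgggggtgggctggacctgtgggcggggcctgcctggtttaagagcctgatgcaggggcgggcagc

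Cish, whose product CIS binds cytokine receptors and blocks STAT5 docking, was highest in the cultures with both salt and LPS. Its values were 8.40, 8.71, 8.29 and 8.44 at 450 mOsm/L with LPS, against 7.72, 7.57, 7.53 and 7.57 at 290 mOsm/L with LPS, and the groups were apart. The difference was 0.87 ± 0.08, or 1.82-fold (adjusted p = 8.88e-08). Without LPS the cultures measured 6.79, 7.00, 6.85 and 7.01 at 450 mOsm/L and 6.82, 6.85, 6.86 and 6.83 at 290 mOsm/L, close to the filter level and overlapping, and the salt difference was 0.07 (95% interval -0.09 to 0.23, 0.451). The interaction was 0.79 ± 0.11 (3.52e-05), and LPS raised Cish 2.93-fold at 450 mOsm/L (2.15e-12) and 1.69-fold at 290 mOsm/L (5.38e-08). The gene with the most similar profile over the 16 arrays was Fst (r = 0.990), followed by Il33 (r = 0.989).

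Socs3, the SOCS gene most tied to STAT3 signalling, was strongly raised by LPS, and in the presence of LPS it was slightly higher with salt. It measured 11.51, 11.51, 11.26 and 11.49 at 450 mOsm/L with LPS, against 11.15, 11.06, 10.88 and 11.06 at 290 mOsm/L with LPS. Every salt culture was higher, though by little, and the difference was 0.40 ± 0.08, or 1.32-fold (adjusted p = 0.000842). Without LPS the values of 7.34, 7.13, 7.20 and 7.45 at 450 mOsm/L overlapped those of 6.97, 7.16, 7.27 and 7.14 at 290 mOsm/L (0.14, 95% interval -0.03 to 0.32, 0.163). LPS gave 17.9-fold at 450 mOsm/L (1.81e-17) and 15-fold at 290 mOsm/L (3.19e-17), and the interaction was 0.26 (0.133). Socs3 has a second probe set, on which the salt difference with LPS was 0.24 ± 0.08 (0.0287) and the LPS differences were 2.97 at 450 mOsm/L and 2.86 at 290 mOsm/L.

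Socs2, which restrains growth hormone and GM-CSF family signalling, showed its main salt difference without LPS. There it measured 10.76, 10.72, 10.56 and 10.50 at 450 mOsm/L, against 9.82, 9.86, 9.40 and 9.71 at 290 mOsm/L, with no overlap and a difference of 0.94 ± 0.11, or 1.91-fold (adjusted p = 1.93e-06, rank 101 from the highest). With LPS the values were 10.86, 11.01, 11.02 and 10.97 at 450 mOsm/L and 11.01, 10.66, 10.56 and 10.48 at 290 mOsm/L, where mouse 1 ran the other way and the groups overlapped. That difference was 0.29 ± 0.11 (0.0403). It was 0.43 without the arrays of mouse 1 (0.00419), and it did not pass in 11 of 32 alternatives, among them no filter (0.0611), median centring (0.0838) and leaving out mouse 2, 3 or 4. The interaction was -0.65 ± 0.15 (0.00425). LPS raised Socs2 by 0.33 ± 0.11 at 450 mOsm/L (0.00977), which did not pass after quantile normalization (0.15, 0.201) or without mouse 4 (0.0587), and by 0.98 ± 0.11 at 290 mOsm/L (1.46e-07). The means were 10.68 with LPS alone and 10.64 with salt alone.

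Socs1, which inhibits JAK kinases and limits interferon signalling, responded to LPS at both osmolarities. Its values were 9.58, 9.79, 9.39 and 9.32 at 450 mOsm/L with LPS and 9.67, 9.50, 9.49 and 9.59 at 290 mOsm/L with LPS, which overlapped (-0.04, 95% interval -0.28 to 0.19, adjusted p = 0.777). Without LPS they were 7.51, 7.21, 7.42 and 7.57 at 450 mOsm/L and 6.82, 7.28, 7.11 and 7.30 at 290 mOsm/L, again with overlap and with 3 of 4 mice higher in salt. That difference was 0.30 ± 0.11 (0.0356), and it did not pass in 10 of 32 alternatives: it was 0.17 without mouse 1 (0.27), 0.20 without the mouse 1 array at 290 mOsm/L (0.145), 0.24 after median centring (0.0932) and 0.21 with array weights (0.141). LPS raised Socs1 4.26-fold at 450 mOsm/L (5.87e-12) and 5.41-fold at 290 mOsm/L (7.35e-13), with an interaction of -0.34 (95% interval -0.67 to -0.01, 0.135).

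**Figure D4:**
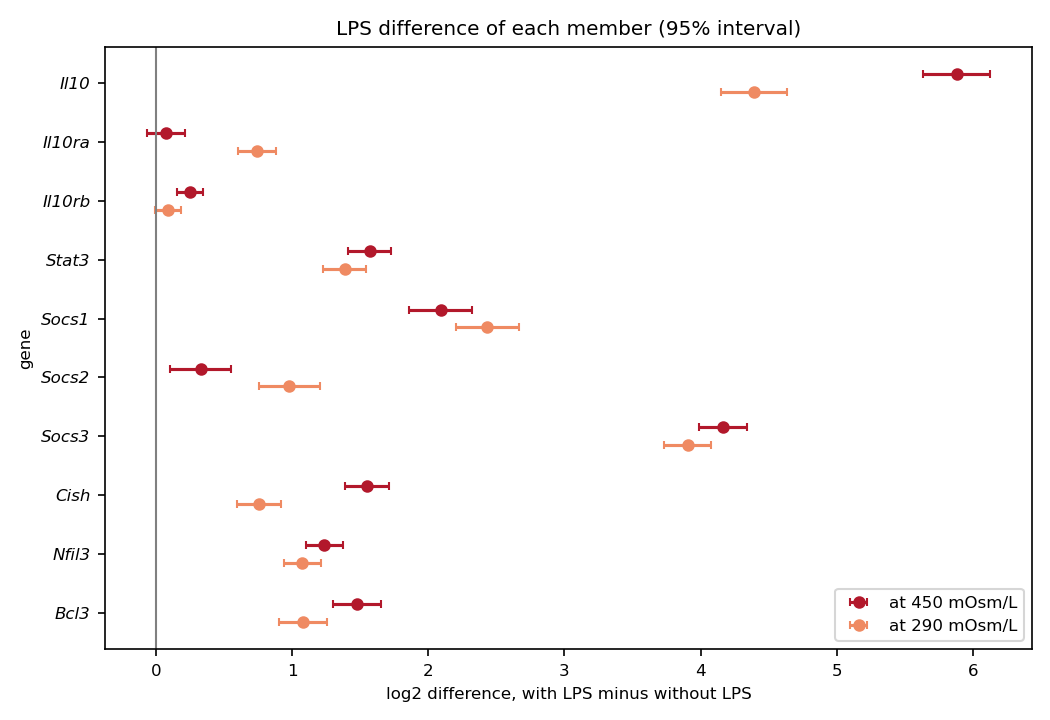
LPS difference of each of the 10 genes (with minus without LPS, log2, horizontal axis) at 450 and at 290 mOsm/L, with 95% intervals from limma. Among genes that passed the interaction test, Il10, Cish and Bcl3 have the larger LPS difference at 450 mOsm/L (5.88, 1.55 and 1.47). Il10ra and Socs2 have it at 290 mOsm/L (0.74 and 0.98). The Il10 differences are taken against arrays below the filter level.

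Nfil3, a basic leucine zipper repressor that IL-10 and STAT3 induce in macrophages, rose with salt in both settings and was the only one of the 10 genes whose 4 groups were all apart. It measured 9.89, 9.81, 9.72 and 9.78 at 450 mOsm/L with LPS, against 9.06, 8.94, 8.70 and 8.97 at 290 mOsm/L with LPS, a difference of 0.88 ± 0.06, or 1.84-fold (adjusted p = 1.09e-08). Without LPS it measured 8.55, 8.56, 8.62 and 8.52 at 450 mOsm/L, against 7.89, 7.78, 7.82 and 7.88 at 290 mOsm/L, a difference of 0.72 ± 0.06, or 1.65-fold (1.2e-07). Salt was thus higher in 4 of 4 mice in each setting. The interaction was 0.16 (95% interval -0.03 to 0.36, 0.238), and LPS raised Nfil3 2.36-fold at 450 mOsm/L (5.54e-12) and 2.11-fold at 290 mOsm/L (4.56e-11). Of 13 genes of the related PAR bZIP and clock group, 5 rose and 3 fell with salt in the presence of LPS (over all tested genes, 16.8% rose and 21.8% fell), led by Bhlhe40 (0.82, 3.64e-08), and 1 rose and 2 fell without LPS (over all tested genes, 20.6% and 23.7%).

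Bcl3, an atypical IκB protein that holds NF-κB p50 homodimers on DNA, was raised by LPS and further by salt in the presence of LPS. Its values were 11.11, 11.15, 10.85 and 11.03 at 450 mOsm/L with LPS, against 10.69, 10.65, 10.65 and 10.69 at 290 mOsm/L with LPS, with no overlap and a difference of 0.36 ± 0.08, or 1.29-fold (adjusted p = 0.0023). Without LPS it measured 9.69, 9.56, 9.46 and 9.53 at 450 mOsm/L and 9.35, 9.70, 9.53 and 9.80 at 290 mOsm/L, which overlapped (-0.03, 95% interval -0.21 to 0.14, 0.77). The interaction of 0.40 ± 0.12 (0.0229) did not pass in 5 alternatives: without mouse 2 (0.195), without mouse 4 (0.131), and without the single arrays of mouse 2 at 450 mOsm/L with LPS (0.0504), mouse 2 at 290 mOsm/L without LPS (0.0504) and mouse 4 at 290 mOsm/L without LPS (0.0506). LPS raised Bcl3 2.78-fold at 450 mOsm/L (1.77e-11) and 2.11-fold at 290 mOsm/L (1.66e-09). Of 11 NF-κB partners and other IκB genes, 2 rose and 1 fell with salt in the presence of LPS (over all tested genes, 16.8% rose and 21.8% fell), with Relb differing by -0.35 (0.00152) and Nfkbib by 0.25 (0.00359). The Bcl3 promoter is shown because, of the 6 searched, it alone matched the NF-κB consensus, which 4.51% of windows hold. The match, in capitals, covers bases 3 to 12 after the start, in chr7:19822736-19823005 (minus strand). It fits the consensus when read on the strand opposite to the one printed.
Bcl3: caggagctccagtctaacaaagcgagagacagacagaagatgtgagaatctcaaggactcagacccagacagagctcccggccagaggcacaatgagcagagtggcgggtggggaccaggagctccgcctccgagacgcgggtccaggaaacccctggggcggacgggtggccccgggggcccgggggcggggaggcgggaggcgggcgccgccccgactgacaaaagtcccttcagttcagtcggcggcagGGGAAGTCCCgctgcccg

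Across the 10 genes, the interaction test separated those that salt raised more in the presence of LPS from those it raised less. Il10 (1.49), Cish (0.79) and Bcl3 (0.40) had positive interactions and Il10ra (-0.67) and Socs2 (-0.65) negative ones, so 3 of 10 were higher and 2 lower, where 21.1% of all genes were called, 10.7% higher and 10.4% lower. Il10rb, Stat3, Socs1, Socs3 and Nfil3 did not pass. Without LPS, Il10 was below the filter level and Cish close to it, where signals are compressed. Against cultures with neither treatment, salt and LPS together gave 9 of 10 genes higher (78.3% of all genes were called, 30.9% higher and 47.4% lower), with Socs3 19.8-fold, Socs1 5.24-fold, Nfil3 3.88-fold, Stat3 3.62-fold and Cish 3.08-fold higher. For Il10 the fitted fold was 59.5, taken against 4 arrays that were all below the filter level. LPS alone against salt alone likewise gave 9 of 10 higher (72.8% of all genes were called, 27.8% higher and 45.0% lower), with Socs2 not passing (0.04, 95% interval -0.18 to 0.27, adjusted p = 0.73). In that comparison Il10ra (0.16, 0.0337) did not pass without the filter (0.0624), after quantile normalization (0.02, 0.824) or without mouse 4 (0.10, 0.268), and Il10rb (0.25, 5.92e-05) was 0.10 after quantile normalization (0.0565). These comparisons share their control cultures with those above and are not separate evidence.

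Genes known to be raised by IL-10 in macrophages, such as Sbno2, Il4ra and Hmox1, rose more often than they fell with salt in the cultures with LPS. Of 14 tested, 8 rose and 0 fell (1 lower at an unadjusted p under 0.05) with salt in the presence of LPS, against 2 and 5 without LPS, with medians of 0.26 and 0.08. Over all tested genes the shares were 16.8% higher and 21.8% lower with LPS and 20.6% and 23.7% without LPS, with medians of 0.0015 and 0.0010. Il4ra, a receptor chain for IL-4 and IL-13, differed by 0.86 with LPS (adjusted p = 4.07e-07) and by 0.11 without LPS (0.295). Ddit4, an mTORC1 inhibitor, differed by 0.73 with LPS (5.2e-07), Sbno2, a co-regulator downstream of STAT3, by 0.41 (4.12e-05) and Hmox1, heme oxygenase-1, by 0.36 (0.000903). Il1rn, which encodes the antagonist of the IL-1 receptor, rose by 0.30 with LPS (0.00324) and fell by 1.28 without LPS (4.17e-10), with an interaction of 1.58 (1.13e-08). Of the 14 interactions, 9 were higher and 1 lower (over all tested genes, 10.7% higher and 10.4% lower), the lower being Cd14 (-0.68, 1.54e-05), the LPS co-receptor.

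Inflammatory genes known to be held down by IL-10 included genes that rose and genes that fell with salt in the same cultures. Of 16 tested, 5 rose and 2 fell with salt in the presence of LPS, with a median of 0.24 (over all tested genes, 16.8% rose and 21.8% fell). Without LPS, 4 rose and 4 fell, with a median of 0.12 (over all tested genes, 20.6% and 23.7%). Among those 4 that rose, Il6 was below the filter level on all arrays without LPS. Nos2, another of them, was below it on 3 of 4 arrays at 450 mOsm/L and on 4 of 4 at 290 mOsm/L. Higher with LPS were Cxcl1, a neutrophil chemokine (1.22, adjusted p = 1.45e-06), Cd80, a costimulatory ligand (0.79, 3.25e-08), and Nos2, inducible nitric oxide synthase (0.74, 1.27e-05). Il12a, a subunit of IL-12, fell by 0.74 (9.45e-06). Il23a, also of this list, did not pass the filter and was not tested. It averaged 7.23 at 450 mOsm/L with LPS, with 1 array below the filter level. At 290 mOsm/L with LPS it averaged 5.88, with all 4 arrays below. Tnf differed by -0.18 with LPS (0.335) and fell by 1.01 without LPS (2.42e-05), with an interaction of 0.83 (0.00641).

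**Figure D5:**
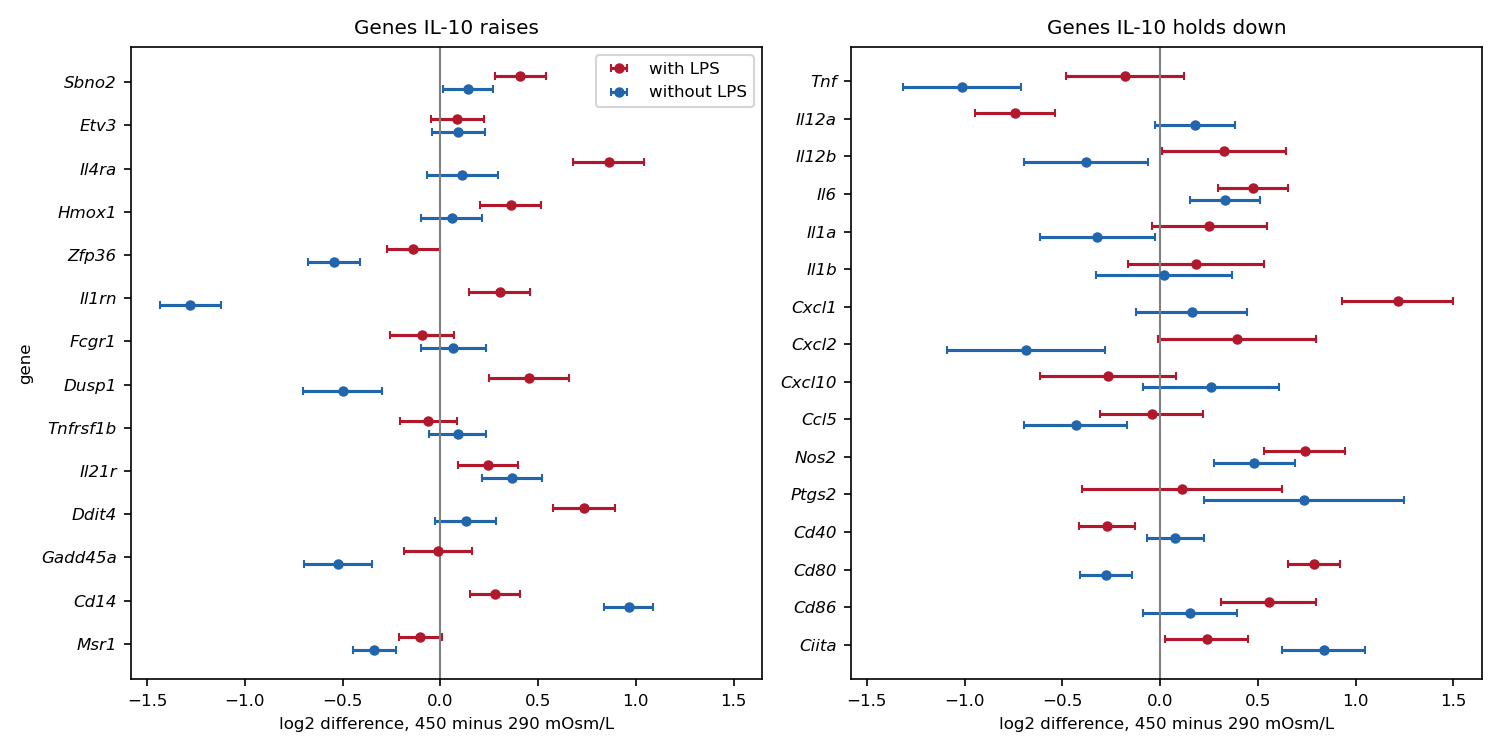
Salt difference (450 minus 290 mOsm/L, log2, horizontal axis) of each tested gene of the list raised by IL-10 and of the list held down by IL-10, with LPS and without LPS, with 95% intervals. In the presence of LPS, 8 of 14 genes of the first list rose and 0 fell, and 5 of 16 of the second rose and 2 fell. Over all tested genes, 16.8% rose and 21.8% fell. The list medians were 0.26 and 0.24.

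Transcription factors and kinases linked to Il10 transcription included genes that rose and genes that fell. Of 19 tested, 2 rose and 7 fell with salt in the presence of LPS (over all tested genes, 16.8% rose and 21.8% fell), and 4 rose and 7 fell without LPS (over all tested genes, 20.6% and 23.7%), with medians of -0.05 and -0.09. With LPS the immediate early genes Egr2 (-0.75, adjusted p = 1.75e-06) and Egr1 (-0.40, 0.00473) were lower, as was Cebpd (-0.50, 9.18e-05), while Crem, a cAMP response factor, was higher (0.34, 0.00448). Cebpd passed the filter only through the 290 mOsm/L cultures with LPS, so a difference between that group and the others followed from its being tested. Crem was above the filter level on all 4 arrays at 450 mOsm/L with LPS. At 290 mOsm/L with LPS 1 array was below it, and without LPS all were. Without the 450 mOsm/L cultures with LPS, Crem would not have passed the filter, which favoured a rise with salt. Prdm1, the repressor BLIMP-1, fell by 0.61 without LPS (1.28e-08) and differed by 0.03 with LPS (0.66), with an interaction of 0.64 (2.06e-06). Among the 13 genes of the GM-CSF receptor and STAT5 target list, 5 rose and 2 fell with salt in the presence of LPS, and 3 rose and 3 fell without LPS, the same shares of all genes applying as for the transcription factors. Pim3, a kinase gene induced by STAT5, differed by 0.37 with LPS (0.000335) and by 0.09 without LPS (0.282), whereas the cyclin gene Ccnd1 fell by 1.20 with LPS (7.37e-07) and by 1.30 without LPS (2.78e-07).

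Over the 16 arrays, the closest profiles to the other genes were Cybb for Il10ra (r = 0.963), Csf3r for Il10rb (r = 0.963), Ebi3 for Stat3 (r = 0.997), Gbp11 for Socs1 (r = 0.994), Gpr55 for Socs2 (r = 0.975), Nos2 for Socs3 (r = 0.998), Hif1a for Nfil3 (r = 0.986) and Stk40 for Bcl3 (r = 0.993). As for Il10, these values all run over the same 4 groups and are given as a description.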

How the data were processed

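Each culture's total RNA was hybridised to 1 array. The deposited table gives log2 expression values, which the authors made with RMA in the oligo package, per the submitters' processing notes. Any version, filter or build behind it is not given in the sources used here. Low signals are compressed by RMA, so folds of dim genes are understated.

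Of 22549 probe sets, 20646 carry 1 gene symbol, 551 several and 1352 none, and 20596 were found in RefSeq by Entrez identifier, which changed 0 symbols. The filter kept probe sets above 6.83, the overall median, on at least 4 arrays. The highest-mean probe set represented each gene, which left 10236 genes. Promoters came from a RefSeq table.

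The contrasts were fitted in limma 3.58.1 (R 4.3.3), as 1 model with 4 group means (12 residual and 5.53 prior degrees of freedom), two-sided, with Benjamini-Hochberg adjustment over all tested genes of a contrast and a threshold of 0.05. Errors are limma standard errors and n is 4 per group. The number of arrays limits the precision. The procedure was tested on simulated data. Figures were drawn with matplotlib 3.10.9 in Python 3.11.15.

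The labels pair cultures through mouse numbers. Deviations from group means correlated with a median of 0.0953 over the 24 same-mouse pairs (-0.146 to 0.433, 11 over 0.1) and -0.0351 over 72 pairs of different mice. The mouse as a block was an alternative, beside other normalizations, filters, variance settings and leaving out each mouse or array.

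The 10 genes, the pathway and marker lists and the rule for naming genes were chosen with earlier results of these data known. From each list the rule takes up to 4 genes with the smallest adjusted p per contrast, and for each of the 10 genes the 3 closest profiles by Pearson correlation, without predicted or clone-based symbols. The text names part of these. Genes of the lists that have no single-symbol probe set were not analysed here.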

Additional observations from a re-analysis of the deposited data

Results flagged for a closer look

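Among the 450 mOsm/L cultures with LPS, the Socs3 value of mouse 3 (11.26) stood apart from the other 3, which lay between 11.49 and 11.51, by more than Dixon's limit for 4 samples. Of 40 sets of 4 values tested, this was the only one past the limit, and chance alone passes it in about 1 set in 20.

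The salt difference differed between LPS-stimulated and unstimulated cells, by limma's interaction test, for 5 of the 10 genes. Over all tested genes 21.1% were called, 10.7% higher and 10.4% lower. The salt difference with LPS minus that without LPS was 1.49 for Il10, 0.79 for Cish, 0.40 for Bcl3, -0.65 for Socs2 and -0.67 for Il10ra. That of Bcl3 did not pass in 5 of 31 alternatives. In unstimulated cells Il10 was below the filter level and Cish close to it, where signals are compressed.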

How the results depend on the processing

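Under 32 alternatives, 50 of the 70 differences of the 10 genes kept their direction and their side of the threshold throughout, and no called difference changed sign. The mouse as a replicate block changed no call of the 10 genes and gave 2359 genes with an interaction, 4763 with a salt difference without LPS and 4225 with LPS, against 2161, 4530 and 3956. The count of the 10 genes lower with salt without LPS was 0 after quantile normalization or cyclic loess, against 1, and 5 had a higher interaction with array weights, against 3. Genes with an interaction numbered 1383 to 2266 when a mouse or an array was left out, the lowest without mouse 2. Changes of sign were limited to differences that did not pass. For salt without LPS, Il10 gave -0.061 after quantile normalization, -0.024 after cyclic loess, -0.041 after median centring, -0.0042 with array weights and -0.053 to 0.10 with mice or arrays left out, and Bcl3 gave 0.032 after cyclic loess and -0.16 to 0.044 with mice or arrays left out. For salt with LPS, Il10rb gave 0.011 after quantile normalization, 0.041 after cyclic loess and -0.035 to 0.033 with mice or arrays left out, and Socs1 gave 0.0033 after quantile normalization and -0.16 to 0.032 with mice or arrays left out. For LPS, quantile normalization gave -0.0068 for Il10rb at 290 mOsm/L and -0.042 for Il10ra at 450 mOsm/L. For LPS alone against salt alone, Socs2 gave -0.17 after quantile normalization, -0.020 with array weights and -0.068 to 0.11 with mice or arrays left out. The Socs3 interaction passed after quantile normalization (adjusted p = 0.0424) and with array weights (0.0474). Cyclic loess gave 3857 genes higher and 3736 lower for LPS at 290 mOsm/L, against 2702 and 4819, and median centring 1335 and 3047 for salt without LPS, against 2104 and 2426. The cause of these shifts was not tested. Signals below the filter level, such as Il10 without LPS, limit what can be resolved.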

Other observations

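Mapkapk2, the kinase gene on the other side of Il10 on mouse chromosome 1, was chosen for its position after its values had been seen. It averaged 12.28 ± 0.04 in the 450 mOsm/L cultures with LPS, 12.07 ± 0.05 in the 290 mOsm/L cultures with LPS, 10.82 ± 0.12 in the 450 mOsm/L cultures without LPS and 10.80 ± 0.19 in the 290 mOsm/L cultures without LPS (log2, SD, n = 4 each). Fcmr, an IgM receptor gene on the far side of Il24, averaged between 6.77 and 6.93 in the 4 groups, close to the filter level.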
